A study of Mus musculus with 2 samples.

Results

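Heme is built by a short chain of enzymes, and 8 of the pathway's genes were followed here through every annotated transcript. They were taken by name in the order of their steps: Alas1, Alas2, Alad, Uros, Urod, Cpox, Ppox and Fech, 8 of 42462 genes and 44 of 129984 transcript entries. The cells were MEL cells, a mouse erythroleukemia line that resembles arrested red cell precursors and makes hemoglobin when given dimethyl sulfoxide (DMSO). Polyadenylated RNA was sequenced from 1 group, MEL cells kept in 2% DMSO for 5 days, with 2 libraries that the labels call biological replicates 1 and 2. Both carry the same cell sample identifier, so they may come from 1 culture or from separate ones, and the spread between them may be technical. Untreated cells were not analysed here, and the values describe treated cells without saying what DMSO changed. In bulk RNA, fewer cells that express a gene and less RNA per cell cannot be told apart.

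Heme synthesis starts and ends in the mitochondrion and passes through the cytosol in between. The first step, which joins glycine and succinyl-CoA to aminolevulinic acid, sets the pace of the pathway and is run by a pair of related enzymes: ALAS1 in most cells, where heme represses it, and ALAS2 in red cell precursors. ALAS2 messenger RNA carries near its 5′ end an iron-responsive element, a small stem-loop that iron regulatory proteins bind to hold back translation when iron is scarce.

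The sequences on which the transcript results turn come first, read from GENCODE M21 transcripts (mm10). The iron-responsive element lies at the start of Alas2-202, the coding Alas2 transcript with the higher level. Capitals mark the loop, bases 12 to 17 of the transcript, and the first 27 of the 30 bases shown make up its first exon (chrX:150547459-150547485, plus strand, mm10).
Alas2-202 start: tggttcgtcctCAGTGCagggcaacaggac
A search for the loop letters CAGTG plus any base, flanked by a stem of 5 base pairs (G with U allowed) and preceded by a C, matched both coding Alas2 transcripts and no coding transcript of the other 7 genes. The same pattern was found in the 5′ untranslated region of 60 of 50507 annotated coding transcripts, 0.119%, while the loop letters alone were found in 25.1%. The leading transcripts of Alas2 and of Ppox by TPM (reads divided by transcript length, then scaled to a fixed library total) were short and without a coding sequence. Parts of them are shown because the capitals set them apart from the coding transcripts. Alas2-204 (569 bases) opens with 111 bases of intron (capitals) before an exon that it shares with the coding transcripts, at chrX:150566390-150566544 on the plus strand.
Alas2-204 start: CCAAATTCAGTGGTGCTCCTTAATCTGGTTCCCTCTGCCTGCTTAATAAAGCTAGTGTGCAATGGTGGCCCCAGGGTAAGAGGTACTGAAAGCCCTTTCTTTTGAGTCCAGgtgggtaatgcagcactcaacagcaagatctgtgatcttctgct
Ppox-204 (420 bases) lies on chromosome 1, minus strand, and its bases 106 to 194 run across 1 splice junction between 171280226 and 171280417. They hold a stretch of 29 bases (capitals) that lies in no coding Ppox transcript, of 36 such bases in all.
Ppox-204 middle: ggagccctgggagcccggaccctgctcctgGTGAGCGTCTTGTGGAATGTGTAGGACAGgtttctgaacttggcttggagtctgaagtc
Over its whole length, Alas2-204 shared 80.5% of its bases with coding Alas2 transcripts and Ppox-204 shared 91.4% with coding Ppox transcripts. Of all the places where a 45-base read can start, 20.95% in Alas2-204 and 10.1% in Ppox-204 give a read found in no other annotated transcript of the same gene. In the coding Alas2-202 the share was 2.22%, in the full-length coding Ppox-201 it was 2.19%, and in Alad-201, the leading Alad transcript, it was 3.18%. Reads from the shared stretches were divided among transcripts by estimation.

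Replicate 1 held 26149725 estimated reads and replicate 2 held 14149299. The limit that a count of 0 allows was 0.115 CPM in replicate 1 and 0.212 CPM in replicate 2 (3 counts per library as a share of its reads, counting error only). All 9 erythroid markers examined reached 1 TPM in both libraries, with a summed level of 27166 and 74095 TPM. All 5 hepatocyte markers, from the liver as the other large heme producer, had 0 reads in both. Of 5 macrophage markers only Cd68 reached 1 TPM in both libraries (sums of 4.07 and 8.43 TPM), and Adgre1 and Mrc1 were at or near 0. Of 5 megakaryocyte markers 3 did (sums of 91.5 and 181 TPM), led by Itga2b at 74.7 and 149 TPM, with Gp6 at 0. Their part in the levels below was not tested.

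Levels of the heme synthesis genes differed by more than 100-fold in these cells. Their median was 206 TPM, where the median of all genes with a mean of at least 10 reads was 10.005 TPM. By mean TPM the order was Alas2, Alad, Ppox, Fech, Cpox, Urod, Alas1 and Uros, at ranks 69, 118, 200, 331, 728, 771, 8268 and 8813 among all genes. Only between Fech and Cpox and between Urod and Alas1 did the libraries' ranges not overlap, so the ranges of the other neighbours in this order overlapped. Within each library the order also held for Alas2 over Alad (2.999-fold and 2.21-fold), Alad over Ppox (1.80-fold and 1.64-fold) and Alas1 over Uros (1.33-fold and 1.18-fold). Ppox and Fech, and Cpox and Urod, changed places between the libraries. Counting coding transcripts alone, the order was Alad, Alas2, Fech, Cpox, Urod, Ppox, Alas1 and Uros, and it was the same in both libraries. There the ranges did not overlap between Fech and Cpox, between Cpox and Urod and between Alas1 and Uros. The 8 genes summed to 2030.02 TPM in replicate 1 and 5315 TPM in replicate 2, of which 1001 and 2265 TPM lay on coding transcripts. Dividing all of a gene's reads by the length of its longest coding transcript, which needs no split among transcripts, put Alad first by the mean of the libraries, before Alas2, Fech, Ppox, Cpox, Urod, Uros and Alas1. This order was not the same in both libraries. In replicate 1 Alas2 (435 CPM per kilobase) stood above Alad (328) and Cpox (118) above Ppox (78.7), and in replicate 2 Alas1 (4.07) stood above Uros (3.95). The divisor of Alas1 was Alas1-202 (3089 bases), which was given 0 and 4.57 reads. Alas1-201, the leading Alas1 transcript, has 2129 bases and would raise Alas1, so its place beside Uros rests on that choice.

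**Figure D1:**
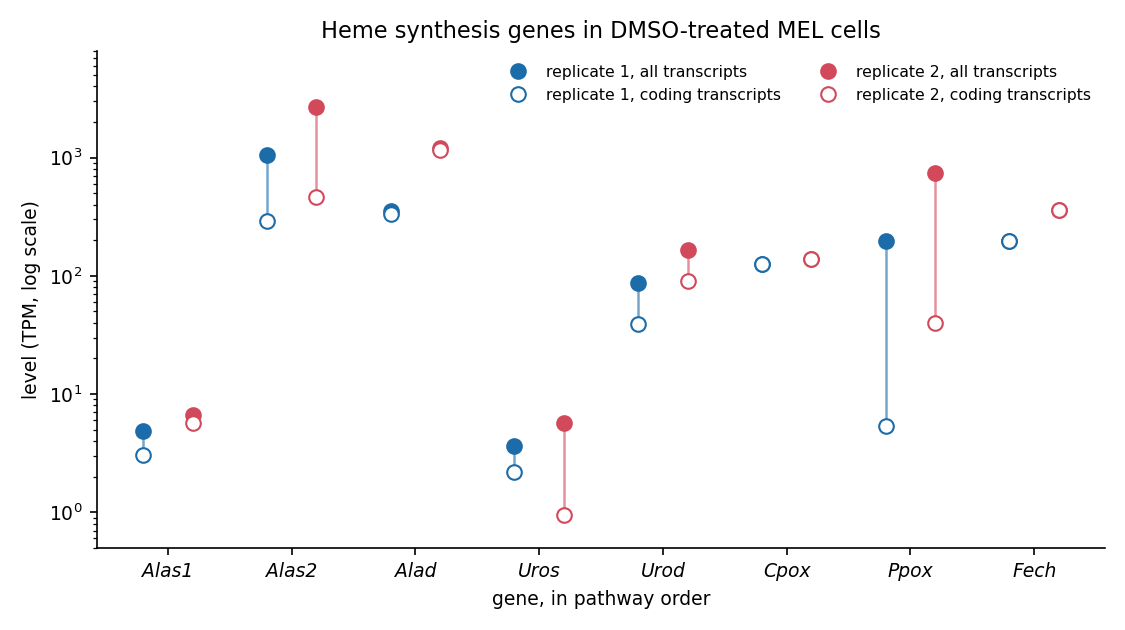
Level of each heme synthesis gene (TPM, log scale) in pathway order, with filled circles for all transcripts and open circles for coding transcripts, blue for replicate 1 and red for replicate 2. The long lines at Alas2 and Ppox mark the distance to the coding level, 291 and 466 TPM for Alas2 and 5.36 and 39.9 TPM for Ppox, while Alas1 and Uros lie near the bottom on either count.

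The housekeeping gene of the first step was nearly silent beside its erythroid relative. Alas1 (ENSMUSG00000032786.10, chr9:106233455-106248654, minus strand) had 4.84 TPM in replicate 1 and 6.70 TPM in replicate 2, from 195 and 175 reads, a mean of 5.77 ± 1.32 (SD, n = 2). Its coding transcript Alas1-201 led in both libraries with 2.75 and 5.55 TPM, 56.9% and 82.9% of the gene's TPM. A nonsense-mediated decay transcript, Alas1-205, was estimated at 27.4% of the gene in replicate 1 and at 0 in replicate 2, from 26.4 reads against none. Of the other transcripts the retained intron Alas1-204 was the only further one with reads in both libraries, at 0.33 and 1.04 TPM. Alas1-202, Alas1-203 and Alas1-207 had reads in 1 library each and at most 0.30 TPM, and Alas1-206 and Alas1-208 had 0 reads in both. At this depth the split of Alas1 rests on few reads, and the estimated reads of Alas1-201 had a posterior SD of 18.6 and 13.4.

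Alas2 (ENSMUSG00000025270.9, chrX:150547375-150570638, plus strand) had the highest level of the 8 genes, 1059.6 TPM in replicate 1 and 2680.45 TPM in replicate 2, from 22639 and 27754 reads. Replicate 2 was the higher library. The deposited credibility bounds, of unstated level, ran from 993 to 1026 TPM and from 2431 to 2500 TPM. Those bounds surround a posterior mean (1009.59 and 2465 TPM) and leave out the TPM itself, so they do not measure its error. The coding transcript Alas2-202 (1892 bases) had 272 and 397 TPM, and Alas2-201 (2037 bases) had 19.5 and 69.4 TPM. Alas2-201 starts upstream of Alas2-202 and holds 45 more coding bases, 1761 against 1716. Together they made 291 and 466 TPM, a mean of 379 ± 124, which was 27.5% of the gene's TPM in replicate 1 and 17.4% in replicate 2.

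Most of the Alas2 signal was placed on the short Alas2-204, whose start is printed above and which ends in the gene's last exon. It had 651 TPM in replicate 1 and 2129 TPM in replicate 2, 61.4% and 79.4% of the gene's TPM. In reads its share was smaller, 36.5% in replicate 1 and 55.1% in replicate 2 (8273 and 15304 reads, posterior SD 57.3 and 58.1), because TPM divides by length. The retained intron Alas2-203 (485 bases) had 118 and 85.6 TPM, 11.1% and 3.19% of the gene. Replicate 2 was thus higher for Alas2-204 and both coding transcripts, and replicate 1 for Alas2-203. The last exon of Alas2 lies opposite exons of Apex2, a DNA repair gene on the other strand. The overlap covers 295 bases of Alas2-204, 295 bases of the coding Alas2-202 and 311 bases of the coding Alas2-201. Whether the libraries kept strand is not stated in the labels. Apex2 was estimated at 574 and 379 reads, a count that comes from the same division of reads. Its part in the reads placed on Alas2-204 and on the coding transcripts was not tested. The tables hold no position of a read, so how many reads covered the 111 intronic bases was not analysed here.

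The Alas2 over Alas1 ratio depended on what was counted. It was 219-fold in replicate 1 and 400.1-fold in replicate 2 by TPM. On coding transcripts alone it was 95.5-fold and 82.4-fold, and by reads per kilobase of the longest coding transcript it was 177-fold and 242-fold. That last scale divided Alas1 by Alas1-202 (3089 bases), and the shorter Alas1-201 (2129 bases) would make the ratio smaller. On each of these scales, and in both libraries, Alas2 was the higher gene by at least 82.4-fold.

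The 3 cytosolic enzymes measured differed widely. Alad (ENSMUSG00000028393.6, chr4:62509169-62519918, minus strand), whose enzyme joins a pair of aminolevulinic acids into porphobilinogen, had 353 TPM in replicate 1 and 1215 TPM in replicate 2 (784 ± 609). Almost all of it was coding, 94.9% and 95.7%. The pair of coding transcripts encode the same 990 coding bases and differ in their noncoding first exon, 59 bases in Alad-201 and 100 bases in Alad-202. Alad-201 had 226 and 1101 TPM, 64.0% and 90.6% of the gene. Alad-202 had 109 and 61.8 TPM, 30.9% and 5.08%. The noncoding Alad-203 had 18.1 and 52.2 TPM. Alad-202 was thus higher in replicate 1 while Alad-201 and Alad-203 were higher in replicate 2. The reads of Alad-201 had a posterior SD of 281 and 191, and those of Alad-202 of 279 and 188. Alad-202 had 3185 and 1018 reads in all.

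Uros (ENSMUSG00000030979.8, chr7:133686243-133710072, minus strand), whose enzyme closes the porphyrin ring in the right orientation, was the lowest of the 8 genes. It had 3.63 TPM in replicate 1 and 5.66 TPM in replicate 2, from 136 and 95.7 reads (4.65 ± 1.44). Its 7 coding transcripts summed to 2.17 and 0.95 TPM (1.56 ± 0.863), the highest being Uros-204 in replicate 1 (0.77 TPM, against 0.19 in replicate 2) and Uros-202 in replicate 2 (0.76 TPM, against 0.18 in replicate 1). The retained intron Uros-206 had 1.47 and 2.10 TPM, 40.4% and 37.1% of the gene. The coding Uros-201, Uros-205 and Uros-208 had 0.53, 0.42 and 0.27 TPM in replicate 1 and 0 in replicate 2, and Uros-203 and Uros-209 had 0 reads in both. The noncoding Uros-207 was estimated at 0 in replicate 1 and at 46.1% in replicate 2, from 19.8 reads. With so few reads the leading transcript differed between the libraries, Uros-206 in replicate 1 and Uros-207 in replicate 2, and the sum over coding transcripts was lower in replicate 2 while the gene's TPM was higher there.

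Urod (ENSMUSG00000028684.10, chr4:116989965-116994413, minus strand), whose enzyme trims the side chains of uroporphyrinogen to give coproporphyrinogen, had 87.5 TPM in replicate 1 and 165 TPM in replicate 2 (126 ± 54.8). The coding Urod-201 led in both with 38.7 and 90.3 TPM, 44.3% and 54.7% of the gene, and held 70.6% and 74.9% of its reads. The 7 retained introns of Urod made up nearly all the rest. The highest of them, Urod-203 (511 bases), had 18.6 and 35.02 TPM, although no 45-base stretch of it is its own. Urod-202 had 6.48 and 24.4 TPM, and Urod-208 had 13.3 TPM in replicate 1 and 0 in replicate 2. The reads of Urod-208 (99.1 and 0) had a posterior SD of 35.6 and 6.42. Its deposited bounds overlapped, reaching down to 3.01 TPM in replicate 1 and up to 4.58 TPM in replicate 2. The remaining retained introns, Urod-205, Urod-206, Urod-207 and Urod-209, lay between 0.47 and 5.38 TPM in either library. The coding Urod-204 had 0 reads in both, and the 162-base Urod-210 had 0 and 3.75 TPM.

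The last 3 steps take place in the mitochondrion again. Cpox (ENSMUSG00000022742.5, chr16:58670292-58717636, plus strand), whose enzyme oxidizes coproporphyrinogen to protoporphyrinogen, had 127 TPM in replicate 1 and 138 TPM in replicate 2, a mean of 132 ± 7.73 and the smallest spread among the 6 genes above 100 TPM on average. Fech (ENSMUSG00000024588.8), for ferrochelatase, which inserts the iron, had 199 and 362 TPM (280.3 ± 116). Each had 1 annotated transcript in the tables, coding, so for these genes no reads were divided among transcripts.

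Ppox (ENSMUSG00000062729.7, chr1:171275990-171281186, minus strand), whose enzyme oxidizes protoporphyrinogen to protoporphyrin, had 196 TPM in replicate 1 and 743 TPM in replicate 2 (469 ± 387), but few of them were placed on coding transcripts. The full-length coding Ppox-201 (1821 bases) was estimated at 0 reads in both libraries. The other coding transcript, Ppox-208 (1167 bases), had 5.36 and 39.9 TPM, 2.74% and 5.37% of the gene. The 420-base Ppox-204 took 165 and 675 TPM, 84.4% and 90.9%. By reads Ppox-204 held 1506 and 3474, while the retained introns Ppox-206 and Ppox-207 held 1466 and 637 and 531 and 747. Ppox-207 (4411 bases) also runs over 791 bases of exons of its neighbour B4galt3, a sugar transferase gene, which had 13.0 and 28.2 TPM. The retained introns Ppox-202, Ppox-203 and Ppox-205 had 0 reads in both. Dividing all Ppox reads by the length of Ppox-201 gave, scaled to depth, 78.7 CPM per kilobase in replicate 1 and 218 in replicate 2, below Fech (184 and 351) in both. On that scale Ppox had a lower value than Fech, whereas by TPM it was level with Fech in replicate 1 and 2.05-fold higher in replicate 2.

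**Figure D2:**
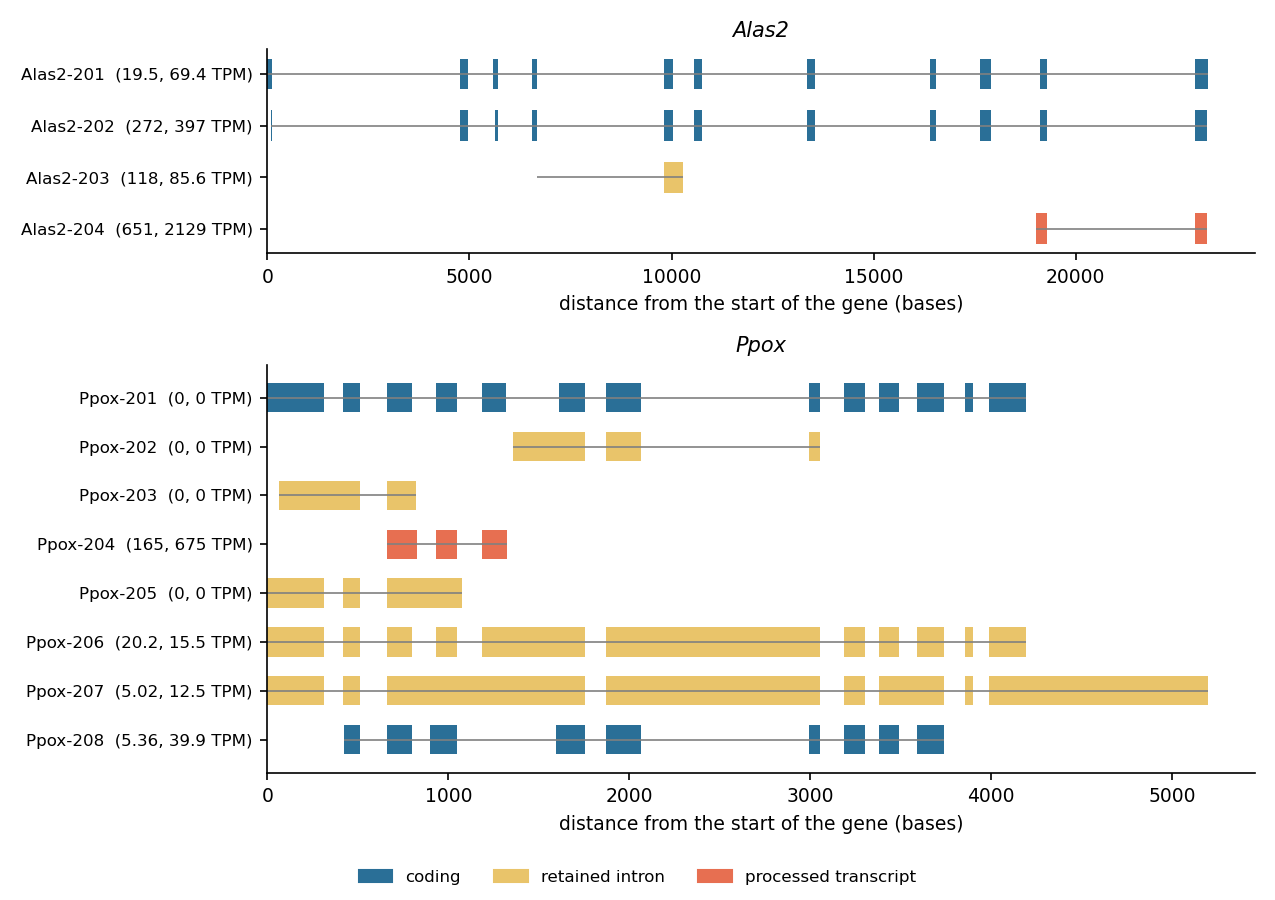
Annotated exons of the transcripts of Alas2 and Ppox by distance from the start of the gene (bases), boxes coloured by transcript class, with the TPM in replicate 1 and replicate 2 beside each name. The short Alas2-204 (651 and 2129 TPM) covers the end of its gene and Ppox-204 (165 and 675 TPM) a stretch near the start of its gene.

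Transcript classes were set beside the rest of the transcriptome. The 44 transcripts were 20 coding, 16 retained intron, 6 processed (spliced, with no coding sequence) and 2 nonsense-mediated decay transcripts, and 9 of them had 0 reads in both libraries. The comparison took the 6591 protein-coding genes that averaged 100 reads or more and had 2 or more transcripts, among them 6 of the 8 genes (all but Cpox and Fech). Less than 50% of TPM lay on coding transcripts in both libraries in 2 of the 6, Alas2 and Ppox, where the share over all genes was 17.4%. A transcript not classed as coding (nonsense-mediated decay transcripts included) had the highest mean TPM in 3 of the 6, Alas2, Ppox and Uros, where it was 23.2% over all genes. The leading transcript differed between the libraries in 1 of the 6, Uros, where it was 29.7% over all genes. Over all 6591 genes the median share of TPM on coding transcripts was 90.9% in replicate 1 and 90.3% in replicate 2. Counted by reads, less than 50% was coding in both libraries in Ppox (3.997% and 11.2%) and Uros (43.8% and 14.8%), where the share over all genes was 9.59%. Alas2 had 57.9% of its reads on coding transcripts in replicate 1 and 43.0% in replicate 2. With 6 genes these counts do not set the pathway apart from other genes, and no test was made.

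**Figure D3:**
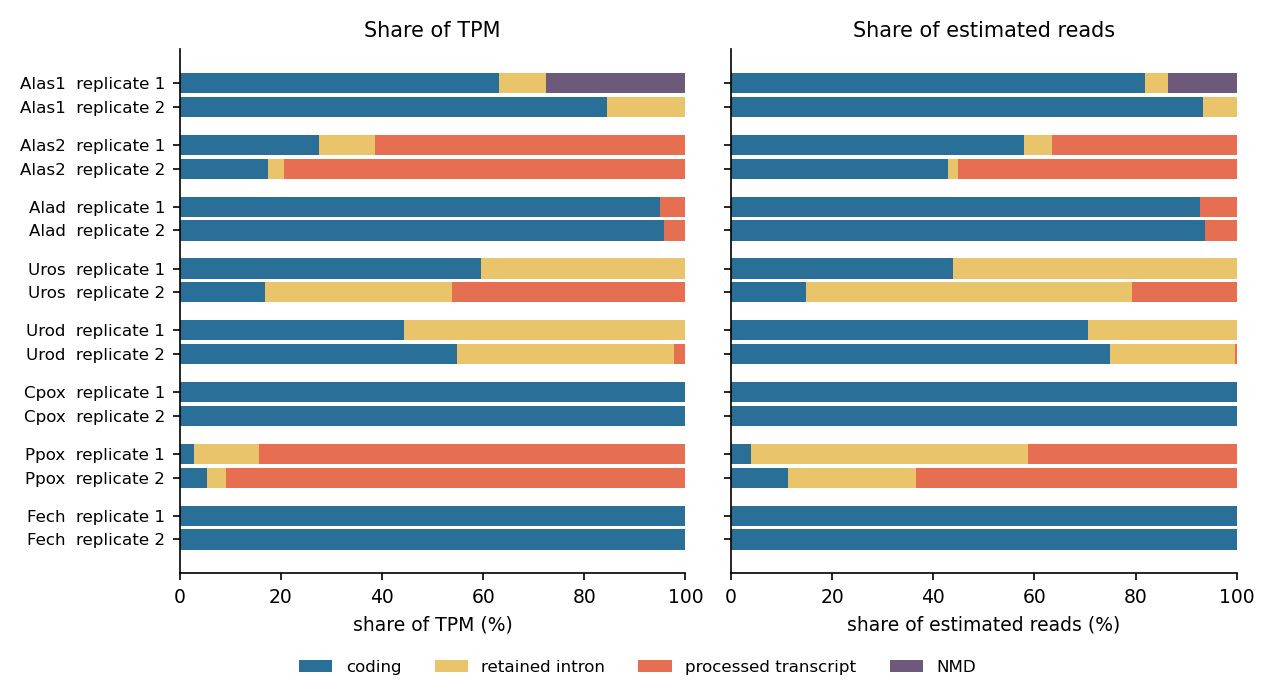
Share of each gene's TPM (left, %) and of its estimated reads (right, %) on coding, retained intron, processed and nonsense-mediated decay (NMD) transcripts, replicate 1 above replicate 2. Alas2 has 27.5% and 17.4% of TPM but 57.9% and 43.0% of reads on coding transcripts, while Ppox stays below 15% on either measure and Cpox and Fech are at 100%.

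**Figure D4:**
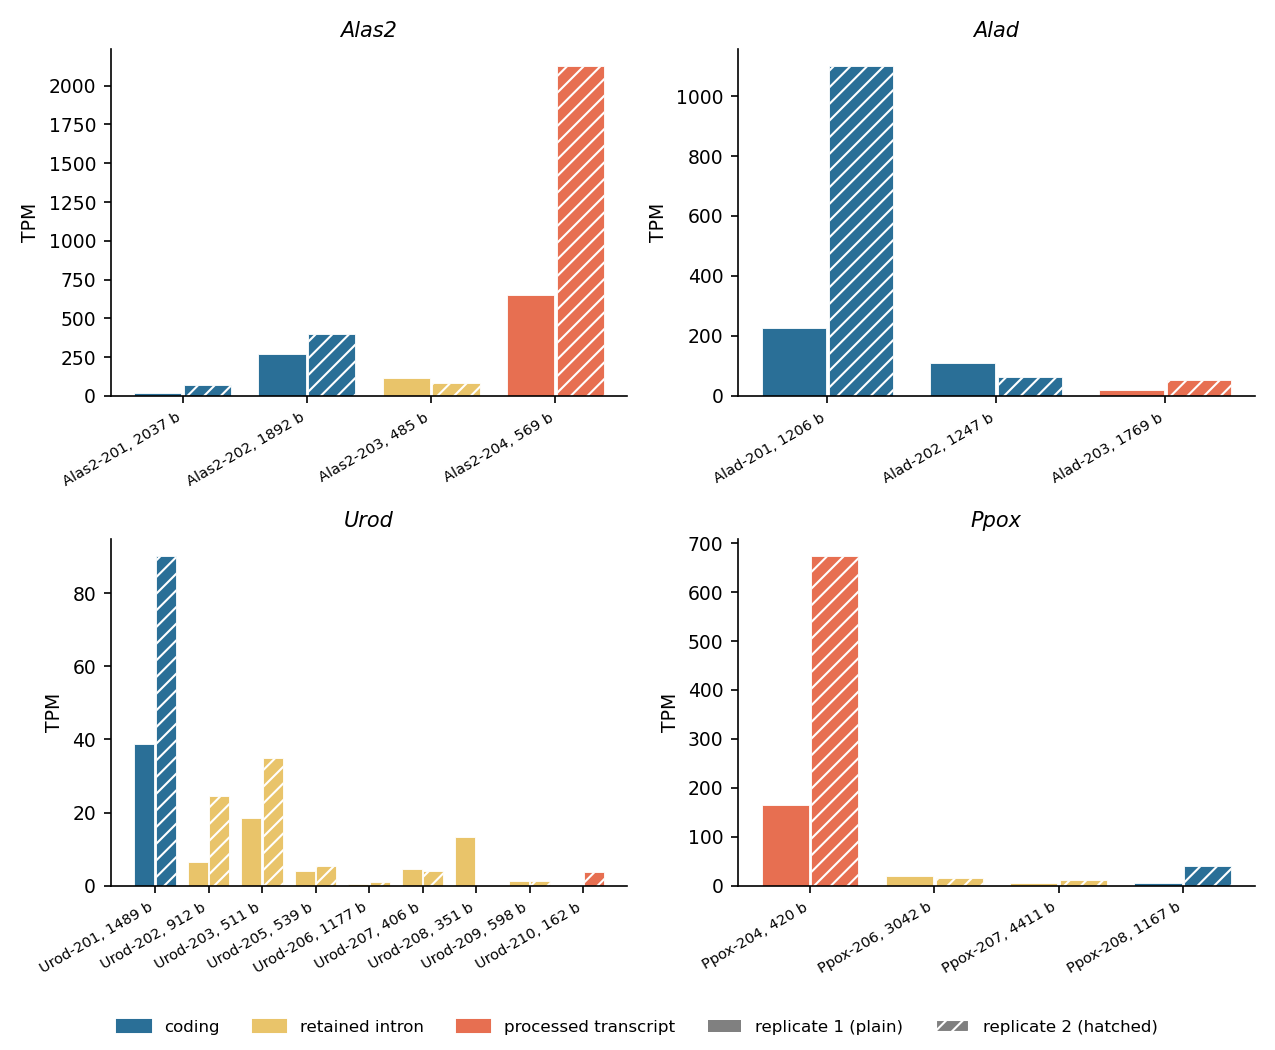
TPM of every transcript with reads of Alas2, Alad, Urod and Ppox, coloured by class, plain bars for replicate 1 and hatched bars for replicate 2, with the transcript length in bases (b) beside its name. Alas2-204, Alad-201, Urod-201 and Ppox-204 have the tallest bars of their genes in both libraries.

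The libraries differed in these genes more in some steps than in others. On the scale of TMM-normalised reads, the log2 ratio of replicate 1 over replicate 2 was -1.57 for Alad, -1.22 for Ppox, -0.95 for Urod, -0.93 for Alas2, -0.68 for Fech, -0.47 for Alas1, -0.13 for Uros and 0.07 for Cpox. With 1 library against 1, these ratios have no replicate check and no test. Of the 8 genes 7 were lower in replicate 1, where 50.3% of all 13419 genes with a mean of at least 10 reads were. The median over the 8 genes was -0.80, and over all genes it was -0.01. Of the 9 erythroid markers 7 were lower in replicate 1 too, with a median of -0.74. So were the 3 megakaryocyte markers (median -1.21) and 2 macrophage markers (median -0.56) that had a mean of at least 10 reads. Past 2-fold were 2 of the 8, Alad and Ppox, both lower in replicate 1. Among all genes 31.4% were past 2-fold in either direction and 14.9% were past 2-fold lower in replicate 1, so 2 of 8 is near the background. The direction for Cpox turned with the scaling: by reads scaled to the whole library, which moves the median of all genes to -0.26, it was -0.18.

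GC content moved with these ratios. Across 8893 protein-coding genes that averaged 100 reads or more, Spearman's rho between the log2 ratio and the GC content of the transcripts was -0.78, a description over genes that share the same libraries. The most GC-rich of the 8 genes, Alad and Ppox at 58.2% each, had the lowest ratios, and the least GC-rich, Cpox at 47.7%, had the highest. Between them lay Urod at 53.9%, Alas1 at 52.8%, Alas2 at 52.4%, Fech at 50.9% and Uros at 50.4%, where the median of all genes was 50.2%. For Fech and Cpox the GC content is that of the GENCODE M21 transcript (2059 and 3097 bases). The transcript quantified was longer (2901 and 3186 bases), so their ratios without the trend rest on another sequence. With the trend on GC content removed, the median over the 8 genes was -0.43, where over all genes it was -0.02. All 8 were then lower in replicate 1 and none was past 2-fold. The shares of all genes lower or past 2-fold were not computed on this scale, so these counts have no background. The log2 ratio of Alad was then -0.70, that of Alas2 -0.67 and that of Ppox -0.35. The GC content of a gene was weighted by TPM, so that of Ppox is mostly that of Ppox-204 (58.6%). Ppox-201 has 56.6% and Ppox-206 has 53.2%, so the GC content of Ppox and its ratio without the trend rest on the transcript split. Whether GC content in library preparation or sequencing produced the ratios was not tested.

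**Figure D5:**
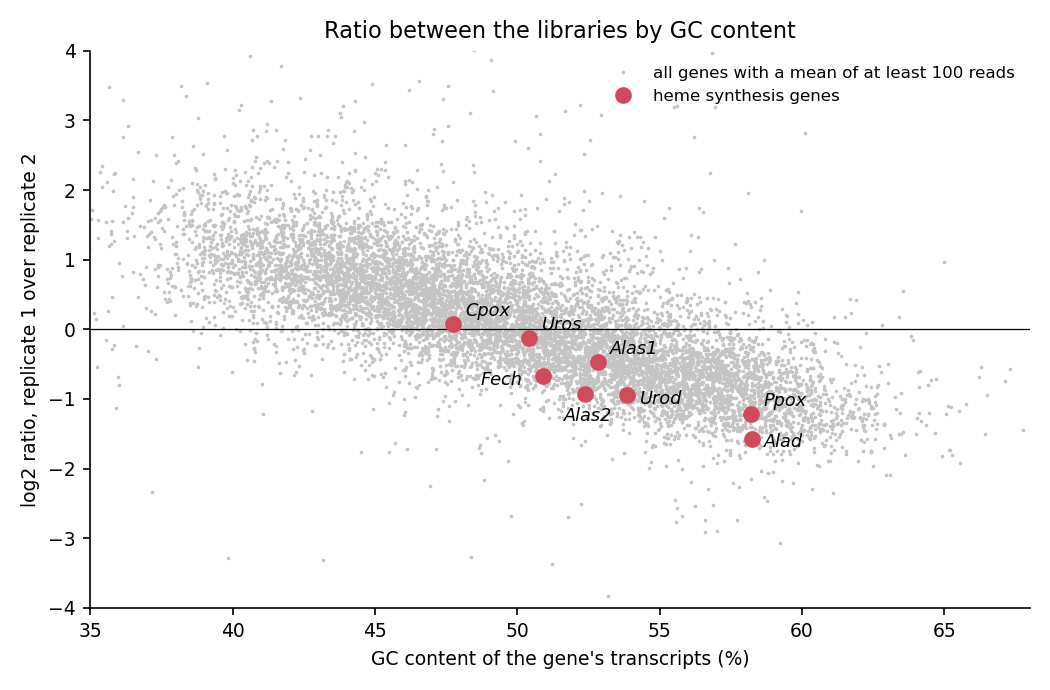
Log2 ratio of replicate 1 over replicate 2 by GC content (%) for genes with a mean of at least 100 reads (grey) and the 8 heme synthesis genes (red). Genes of high GC content lie lower, and the red points range from Cpox (0.07 at 47.7%) down to Alad (-1.57 at 58.2%). With the trend on GC content removed, all 8 were lower in replicate 1, with a median of -0.43, where over all genes it was -0.02. The share of all genes lower on that scale was not computed.

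Genes that feed, guard or use the pathway were counted from a list of 21: substrate supply, turnover of ALAS, iron delivery, movement of intermediates, iron regulatory proteins, heme sensors and heme breakdown. All 21 reached 1 TPM in both libraries, with a median of 25.6 TPM. Highest were Clpp (43.1 and 101 TPM), the protease that works with ClpX, and Tmem14c (60.1 and 80.6 TPM), which carries protoporphyrinogen across the inner mitochondrial membrane. Next were Abcb10 (49.1 and 88.6 TPM), a mitochondrial transporter needed for heme synthesis in red cell precursors, and Eif2ak1 (59.2 and 67.8 TPM), the kinase that slows translation when heme is short. The lowest mean was that of Slc25a38 (4.27 and 7.43 TPM), which brings glycine into the mitochondrion. Clpx, whose protein unfolds ALAS to activate it or hand it to proteolysis, had 14.2 and 11.4 TPM. The genes of the proteins that bind the Alas2 element printed above, Aco1 and Ireb2, had 11.5 and 15.3 TPM and 25.7 and 17.5 TPM. The ranges of Aco1 and Ireb2 did not overlap. By TPM over all transcripts, all 21 had a lower mean than each heme synthesis gene but Alas1 and Uros. On coding transcripts alone, Ppox (22.6 TPM) and Urod (64.5 TPM) had means below that of Clpp over all its transcripts (72.2 TPM). In the ratio of replicate 1 over replicate 2, 13 of the 21 were lower in replicate 1, where 50.3% of all genes were, with a median log2 ratio of -0.25. Past 2-fold in either direction were 5 of the 21, where 31.4% of all genes were.

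Windows at the RefSeq starts (GRCm38.p6) were matched for 7 of the 8 genes, 10 in all, with 2 start sites each for Alas1, Alad and Uros, and Fech was not matched. Both Alas1 and both Uros windows lie inside the gene as GENCODE annotates it, downstream of its first start. In the 250 bases before each start, the GATA motif AGATAA (either strand) was found in Alas2 alone, 86 bases before the start. That is 1 of the 10 windows, near the 9.99% of all 32851 windows that hold it. The sequence shown is that of Alas2, from the window's first base to the first annotated start of the gene (chrX:150547167-150547374, plus strand), with the motif, on the minus strand, in capitals.
Alas2 promoter: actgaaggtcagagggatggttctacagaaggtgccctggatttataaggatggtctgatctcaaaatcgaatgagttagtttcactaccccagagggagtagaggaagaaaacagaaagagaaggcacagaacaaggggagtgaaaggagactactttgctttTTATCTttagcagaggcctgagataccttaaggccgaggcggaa
The CACCC motif (either strand) was found 3 times before the Alas2 start, between 40 and 30 bases upstream and past the end of the stretch shown, inside the first exon of Alas2-201. It was found 4 times before the Cpox start, once in each Alas1 window and once in 1 of the Alad windows, and in 52.0% of all windows. No AGATAA or CACCC was found in the windows of Uros, Urod and Ppox. With 10 windows these matches do not set the genes apart from others. A match describes the letters in these windows and shows no binding.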

How the data were processed

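PolyA RNA of MEL cells in 2% DMSO was sequenced from 1 end in 2 libraries. The assembly was mm10, per the labels, and the annotation GENCODE M4, per the submitters' lists of files. Aligner and quantifier are not stated there. The authors deposited expected counts (estimated reads, not scaled) per gene and transcript, with TPM and FPKM as length-scaled values. The percent of a gene's TPM held by each transcript was deposited too, with posterior means, SDs and bounds. Effective length was the length minus 44 bases for all 44 transcripts. GENCODE M21, a later release for mm10, gave names, classes and coordinates by Ensembl ID (42462 of 43346 genes). Of the 44 transcripts 40 had the same length there, all but Alas1-205, Alas1-207, Cpox-201 and Fech-201. The 26248 numeric and 97 spike-in entries stayed out of count methods but are part of deposited TPM and of the read totals. Depth was 26149725 and 14149299 estimated reads.

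Expected counts were rounded, scaled by TMM (edgeR 4.0.16; DESeq2 1.42.0 size factors as an alternative; R 4.3.3), and log2 ratios used a prior count of 1. With 1 library against 1, no p-value was computed. GC content was averaged over M21 transcripts by TPM (99.0% of genes averaging 100 reads or more had a value), and the trend was a lowess curve of span 0.3. Other steps used Python 3.11.15, pandas 2.3.3, numpy 2.4.6, statsmodels 0.14.6 and matplotlib 3.10.9. Tested on simulated data with 200 of 13520 genes changed 4-fold, the ratio step returned median log2 ratios of 2.00 and -2.01. The simulated libraries shared all other proportions and had counting error only. They held no GC trend, so this checks the calculation and not the accuracy of the ratios here. All 8 genes and every transcript were reported. Of the 21 partner genes the 4 highest and 2 lowest by mean TPM, Clpx, Aco1 and Ireb2 were to be named, and 1 gene that this rule takes is not reported here. Members and lists were chosen with earlier results of these data known. Alternatives were other units, scalings, prior counts, filters, transcript classes and each library alone. Protein sequences were not analysed here.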

Additional observations from a re-analysis of the deposited data

How the results depend on the processing

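The log2 ratio of Alas2 to Alas1, 8.21 as the mean of the libraries' log2 ratios of TPM, was 6.47 on coding transcripts only, an alternative that leaves out Alas2-204 and Alas2-203. The number of genes with less than 50% of TPM on coding transcripts in both libraries, 2, was 0 with transcripts under 600 bases left out, since that removes Alas2-204 and Ppox-204. The number past 2-fold between the libraries, 2, was 4 by reads scaled to the whole library and 0 with the GC trend removed. The median log2 ratio of all genes was -0.26 and -0.02 on those scales. The share of all genes past 2-fold, 31.4% on the main scale, was not computed there, so the 4 and the 0 have no background. The log2 ratio of Cpox, 0.07, was -0.18 by reads scaled to the whole library, -0.12 by deposited TPM and -0.25 with the GC trend removed, and the cause was not tested. The other 30 alternatives for the main comparisons kept their direction, with counts within 1.5 times and values within 1 SD (of the libraries, or of the 8 genes' ratios for ratios between libraries). Among them the median log2 ratio over the 8 genes, -0.80, was -0.43 with the GC trend removed, and the number with less than 50% of TPM coding was 3 in each library alone (Urod joining in replicate 1 and Uros in replicate 2). By share of reads that number was again 2, but the genes were Ppox and Uros. Alas2 then left the count, with 57.9% of its reads coding in replicate 1 and 43.0% in replicate 2. Of the alternatives for single genes 103 stayed within these limits and 22 moved, among them mean levels with coding transcripts only (Ppox 22.6 TPM, Alas2 379 TPM) and with TPM rescaled without pseudogenes and mitochondrial genes (Alas2 3017 TPM). No paired analysis was possible because there was 1 group. Depth limits the transcript splits of Alas1 and Uros, and 2 libraries limit every SD.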
